A study of Homo sapiens with 12 samples.

Results

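Ligands of the activating receptors NKG2D and DNAM-1 were examined in YT cells, a human NK-like lymphoid cell line. The 7 genes MICA, MICB, ULBP1, ULBP2, ULBP3, PVR and NECTIN2 were taken by gene symbol from the table of 17589 genes, and all 7 passed the filter on low counts and were tested. The cells had been transduced with lentiviral vectors and carried eGFP alone (CTRL), hnCD16, FR1 or FR2. RNA was taken without stimulation, and 12 libraries were made, 3 for each group. The hnCD16 construct is a CD16a variant with increased affinity for the antibody Fc part that resists cleavage, and it keeps the natural cytoplasmic tail. In FR1 the tail is replaced by the cytoplasmic domains of 2B4, DAP10 and CD3ζ, and in FR2 by those of DAP10 and CD3ζ. Constructs were driven by the constitutive EF1A promoter, and eGFP-positive cells were sorted and expanded, so each group is 1 sorted population, labelled as the YT line. The study's methods describe its in vitro data in general as coming from independent experiments. The labels do not tell whether the 3 libraries of a group were separate cultures, so p-values measure the spread between these libraries, which may be technical.

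NKG2D is a homodimer on NK cells and some T cells that signals through the adaptor DAP10. It recognizes MICA and MICB, which are MHC class I-related transmembrane proteins, and the ULBP proteins, which are mostly held in the membrane by a lipid anchor. Cell stress, DNA damage, infection and transformation are known to raise these ligands on target cells, and proteases can release them from the surface. PVR (CD155) and NECTIN2 (CD112) are nectin family adhesion proteins that activate NK cells through DNAM-1 (the product of CD226) and inhibit them through TIGIT, with CD96 as a further receptor of PVR and PVRIG of NECTIN2. The question behind the RNA-seq comparison was how the transcriptomes of the 4 transduced populations differ. Here the ligand genes that lymphoid cells themselves transcribe are described; surface protein was not analysed here.

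The libraries held between 17714550 and 18729013 counts. FCGR3A, the gene on which the constructs are based, had 0 counts in each CTRL library. Against a floor of 3 counts per library, its level was at least 166-fold higher in hnCD16, 214.5-fold higher in FR1 and 406.6-fold higher in FR2. The marker genes set the FR1 and FR2 libraries apart from the CTRL and hnCD16 libraries. Of 18 NK markers, 7 reached 1 CPM (counts scaled by library size with TMM) in every CTRL library and 7 in every hnCD16 library, against 12 in FR1 and 13 in FR2. The summed NK marker level ranged from 96.1 to 106 CPM in CTRL and from 97.5 to 108.3 in hnCD16, but from 4744 to 5011 in FR1 and from 4672 to 4775 in FR2. The 6 T cell markers summed to between 657 and 770.3 CPM in CTRL and 740 and 797 in hnCD16. In FR1 they summed to between 36.2 and 40.1 CPM, and in FR2 to between 41.6 and 43.0. Of the 18 NK markers, 2 were at or under the floor in every CTRL library (TBX21 among them). In hnCD16 there were 3 such NK markers (NCAM1 and NCR1 among them), in FR1 3 and in FR2 2 (TYROBP among them in both). The T cell markers CD3D, CD4 and CD8A were likewise at or under the floor in every FR1 and FR2 library. The 4 B cell markers in the table summed to between 9.19 and 14.7 CPM over CTRL and hnCD16, against 38.3 to 47.4 over FR1 and FR2, although CD79B was at or under the floor in FR1 and FR2. The 5 myeloid markers summed to between 2.95 and 4.13 CPM over CTRL and hnCD16. They reached 5.90 to 7.08 CPM in FR1, and FR2 libraries had 9.68 to 10.6. The 4 epithelial and fibroblast markers in the table summed to between 3.99 and 5.11 CPM in all libraries. The NK, T cell, B cell and myeloid differences go along with every comparison across the 2 pairs of groups (FR1 or FR2 against CTRL or hnCD16), and their part in the results was not tested. Whether all libraries come from the same cells was not tested either, and in comparisons across the pairs the construct and the cell population cannot be told apart. The comparisons of hnCD16 with CTRL and of FR1 with FR2 stay within libraries of closer marker levels. Between FR1 and FR2 the NK marker sums overlapped, but the T cell, B cell, myeloid, and epithelial and fibroblast sums did not.

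The ligand genes lie in 3 stretches of the genome (GENCODE v44, GRCh38). MICA (NCBI Gene 100507436) is at chr6:31399784-31415315 and MICB (4277) at chr6:31494881-31511124, both on the plus strand of the HLA region and 79565 bp apart. ULBP2 (80328) at chr6:149942014-149949235 and ULBP1 (80329) at chr6:149963943-149973715 are neighbours on the plus strand with 14707 bp between them. ULBP3 (79465) at chr6:150061053-150069121 is on the minus strand. PVR (5817) at chr19:44643798-44666162 and NECTIN2 (5819) at chr19:44846175-44889223 are on the plus strand, with 180012 bp between them.

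A stretch upstream of the MICA and MICB starts is shown because both genes are classed as heat shock responsive, while MICA was called lower across the pairs and MICB was not called. The 30 bases start at position -135 from the RefSeq start of MICA (chr6:31403460-31403489) and at -139 of MICB (chr6:31498006-31498035), on the plus strand of GRCh38.p14. Capitals mark the heat shock element letters GAANNTTC and the GC box GGGCGG, searched on both strands. The MICA stretch lies within an exon that GENCODE gives to another MICA transcript.
MICA: GAATTTTCtcttccaagcgtggccCCGCCC
MICB: GAATTTTCtcttctgaacgtggccCCGCCC
The 2 stretches were identical at 27 of 30 bases, and the capitals were the same in both. MICA and MICB were the only 2 of the 7 promoters (250 bases before to 50 after the start) with GAANNTTC, which 6.77% of 35116 RefSeq promoters hold. None of the 7 held TTCNNGAA, found in 7.74% of all promoters, or the E2F letters TTTGGCGC or TTTCGCGC, found in 1.15%. A GC box was present in 6 of the 7, all except PVR, and in 44.95% of all promoters. NECTIN2 held the cAMP response letters TGACGTCA at its start, as 1.85% of promoters do. All 7 held the loose NF-kB pattern, present in 58.7% of promoters, which overlaps a GC box in MICA, MICB, ULBP3 and NECTIN2.

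ULBP1 and ULBP2 are shown because they are adjacent genes, of which ULBP1 was called lower in all 4 comparisons across the pairs and ULBP2 higher in 3 of them. Each line gives the 250 bases before the RefSeq start on the plus strand of GRCh38.p14 (ULBP1 chr6:149963693-149963942, ULBP2 chr6:149941764-149942013), with GC boxes in capitals.
ULBP1: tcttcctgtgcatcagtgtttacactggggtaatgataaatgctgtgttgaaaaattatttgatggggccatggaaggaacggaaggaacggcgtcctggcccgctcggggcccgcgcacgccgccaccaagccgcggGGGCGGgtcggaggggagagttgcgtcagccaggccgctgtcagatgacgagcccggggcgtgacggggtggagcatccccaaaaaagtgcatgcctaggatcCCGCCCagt
ULBP2: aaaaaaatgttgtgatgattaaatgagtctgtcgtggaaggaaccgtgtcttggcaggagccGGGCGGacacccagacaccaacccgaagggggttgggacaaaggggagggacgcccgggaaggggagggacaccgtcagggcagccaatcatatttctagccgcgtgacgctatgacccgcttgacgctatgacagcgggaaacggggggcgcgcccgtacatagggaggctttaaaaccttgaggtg
PVR and NECTIN2 are shown because both had the lowest levels in FR1 and FR2. The exon-free part upstream of each start is given for the plus strand (PVR chr19:44643660-44643797, NECTIN2 chr19:44846047-44846174), with the GC box in capitals.
PVR: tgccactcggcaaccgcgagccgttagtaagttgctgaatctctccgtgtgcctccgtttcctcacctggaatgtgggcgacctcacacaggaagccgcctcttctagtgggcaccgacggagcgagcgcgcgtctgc
NECTIN2: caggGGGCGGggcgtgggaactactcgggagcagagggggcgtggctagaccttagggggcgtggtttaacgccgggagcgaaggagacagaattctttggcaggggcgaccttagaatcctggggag
A match of letters is a description and not a site of binding, and RNA-seq does not measure factor binding.

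Levels between genes were compared in TPM, the authors' transcript abundance that accounts for length. MICB had the highest mean level in each group, at 20.04 ± 0.305 TPM (SD, n = 3) in CTRL and 16.5 ± 0.682 in hnCD16. It was at 23.3 ± 1.06 TPM in FR1 and 23.8 ± 0.428 in FR2. MICB stood above 67.9% of the genes in the table in CTRL and above 72.1% in FR2. MICA came second in CTRL (17.7 ± 1.01 TPM) and hnCD16 (15.04 ± 0.430) but after ULBP2 in FR1 (6.15 ± 1.23) and FR2 (7.20 ± 1.19). ULBP2 took the opposite course, below MICA in CTRL (4.76 ± 0.635) and hnCD16 (4.67 ± 0.310) and above it in FR1 (8.75 ± 0.722) and FR2 (9.03 ± 0.457). No library of MICB, MICA or ULBP2 overlapped with its neighbour in this order, in any group.

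The lower part of the order was less clear. In CTRL, PVR at 2.92 ± 0.223 TPM overlapped with ULBP1 at 2.33 ± 0.570, which overlapped with NECTIN2 at 1.46 ± 0.380. In hnCD16, PVR (2.81 ± 0.522) and ULBP1 (2.36 ± 0.460) overlapped, while NECTIN2 (1.01 ± 0.161) was below ULBP1 in every library. ULBP3 had the lowest level in CTRL (0.980 ± 0.173) and hnCD16 (0.660 ± 0.0917). In FR1, ULBP3 (0.553 ± 0.0987) and ULBP1 (0.457 ± 0.112) overlapped, and so did PVR (0.157 ± 0.0252) and NECTIN2 (0.0833 ± 0.104). In FR2, the same pairs overlapped, with ULBP1 at 0.607 ± 0.136, ULBP3 at 0.430 ± 0.128, PVR at 0.240 ± 0.0529 and NECTIN2 at 0.120 ± 0.104.

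**Figure D1:**
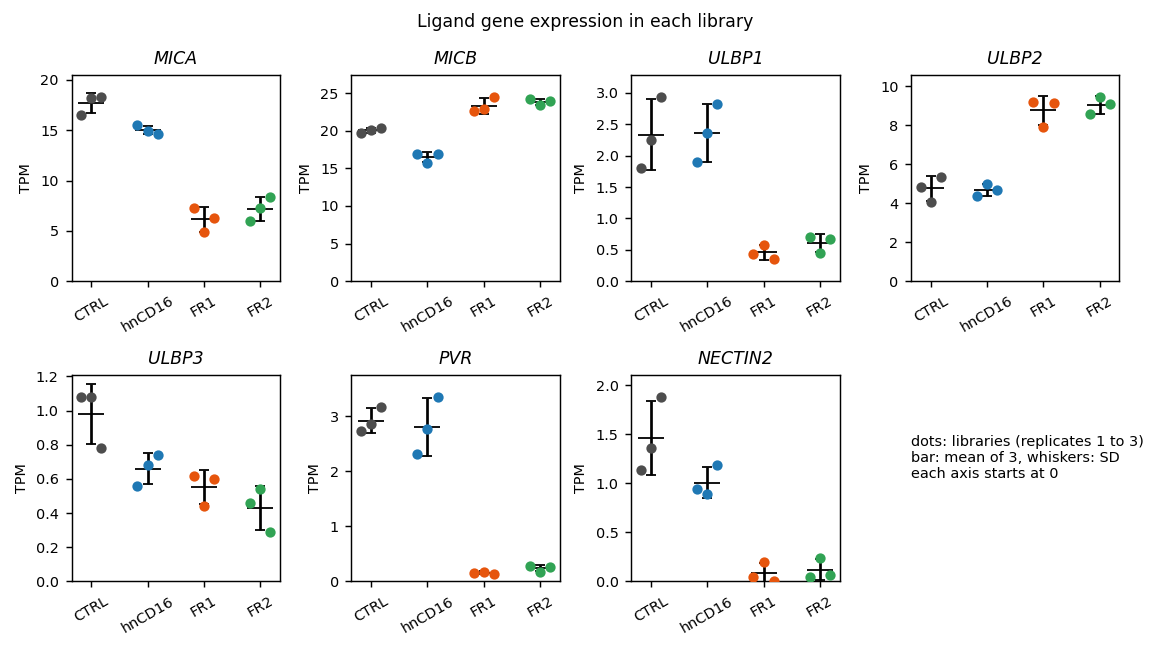
TPM of the 7 ligand genes (y axis, starting at 0, a separate scale for each gene) in each library of CTRL, hnCD16, FR1 and FR2 (x axis). Dots are libraries, the bar is the mean of 3 and the whiskers are the SD. PVR and NECTIN2 reach at most 0.28 and 0.24 TPM in FR1 and FR2, while ULBP2 lies between 7.92 and 9.46 TPM there against 4.08 to 5.34 in CTRL and hnCD16.

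A gene was called a DEG when its log2 fold change reached 1 in either direction with an adjusted p no higher than 0.05, from edgeR's quasi-likelihood test with Benjamini-Hochberg adjustment over 13657 genes. In FR1 compared with CTRL, 5 of the 7 ligand genes were called, where 38.0% of all tested genes were. Of the 5, 1 was higher (18.3% of all genes) and 4 were lower (19.8%). In FR2 compared with CTRL, 5 were called, against 38.2% of all genes, again 1 higher (18.7%) and 4 lower (19.6%). In FR1 compared with hnCD16, 4 were called, against 38.3%, of which 0 were higher (18.7%) and 4 lower (19.6%). In FR2 compared with hnCD16, 5 were called, against 39.5%, of which 1 was higher (19.6%) and 4 lower (19.8%). The genes that fell in all 4 of these comparisons were MICA, ULBP1, PVR and NECTIN2, and the gene that rose in 3 of them was ULBP2. The median log2 fold changes of the 7 genes were -1.299, -1.10, -1.21 and -1.01, while those of all tested genes were -0.03, -0.04, -0.01 and -0.03. These comparisons share their control libraries and are not independent of each other. In RNA from whole populations, fewer cells that express a gene and less RNA per cell cannot be told apart.

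Within the pairs of groups none of the 7 was called. In hnCD16 compared with CTRL, 0 of 7 were called, where 0.527% of all genes were (0.212% higher and 0.315% lower), and edgeR gave 0 of 7 at an unadjusted p under 0.05. The log2 fold changes ranged from -0.42 (ULBP3) to 0.14 (ULBP1). In FR1 compared with FR2, 0 of 7 were called, where 1.93% of all genes were (0.439% higher and 1.49% lower), and again 0 of 7 had an unadjusted p under 0.05. Here they ranged from -0.64 (PVR) to 0.36 (ULBP3). DESeq2 and limma called 0 of 7 in both comparisons. For ULBP3, PVR and NECTIN2 the standard errors of the FR1 and FR2 difference were 0.31, 0.34 and 0.86. Differences as small as these errors could not be detected. The fold changes of these genes also stayed under the fold threshold, which by itself kept them from being called.

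**Figure D2:**
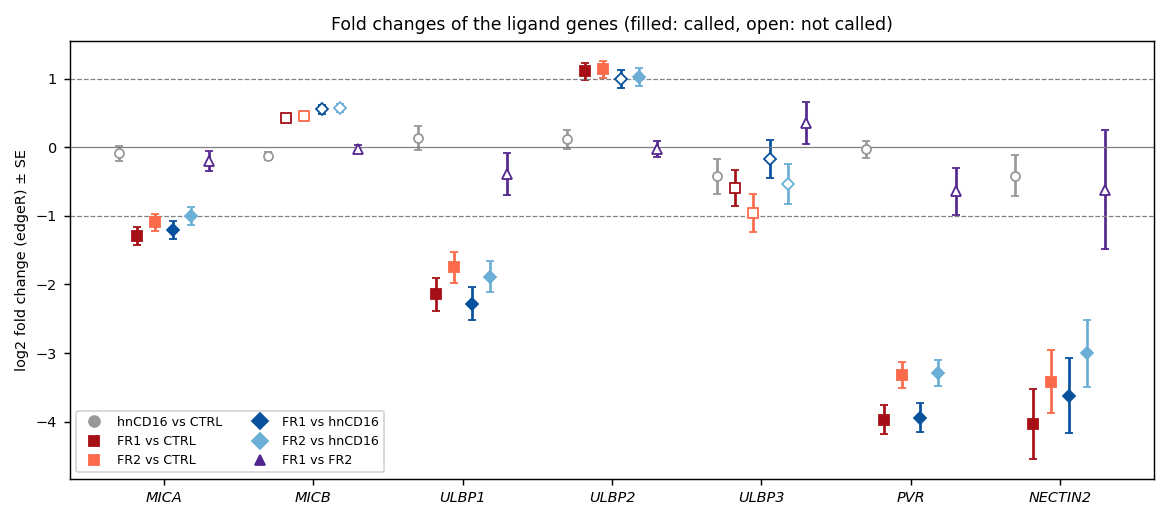
Log2 fold changes of the 7 ligand genes (y axis, edgeR, whiskers are SE) in the 6 comparisons between groups. Filled symbols were called and open ones were not, and dashed lines mark the fold threshold. The 4 comparisons across the pairs lie between -4.03 and -1.01 for MICA, ULBP1, PVR and NECTIN2 and between 0.42 and 1.13 for MICB and ULBP2.

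Among the ligands of DNAM-1, PVR had 149, 139 and 166 counts in the CTRL libraries and 133, 137 and 146 in hnCD16. It had 7, 11 and 7 counts in FR1 and 17, 8 and 15 in FR2. Every FR1 and FR2 library was far below every CTRL and hnCD16 library, and FR1 overlapped with FR2. Compared with CTRL, PVR fell by 3.97 ± 0.21 (SE) on the log2 scale in FR1 (edgeR adjusted p = 5.64e-12) and by 3.32 ± 0.19 in FR2 (adjusted p = 1.69e-11). Compared with hnCD16, it fell by 3.94 ± 0.21 in FR1 (adjusted p = 7.05e-12) and by 3.30 ± 0.19 in FR2 (adjusted p = 2.08e-11). These are differences of 15.7-, 10.01-, 15.4- and 9.82-fold.

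NECTIN2, the second nectin ligand of DNAM-1, was low everywhere. It had 26, 32 and 42 counts in CTRL and 22, 21 and 27 in hnCD16. It had 1, 4 and 0 counts in FR1 and 1, 5 and 2 in FR2. The FR1 and FR2 libraries had at most 5 counts, and all lay below the CTRL and hnCD16 libraries. The log2 fold changes were -4.03 ± 0.51 for FR1 and -3.42 ± 0.46 for FR2 against CTRL, and -3.62 ± 0.54 and -3.002 ± 0.49 against hnCD16 (edgeR adjusted p = 1.03e-06, 2.39e-06, 8.58e-06 and 2.24e-05). By summed counts, NECTIN2 was 17.5-fold lower in FR1 than in CTRL, with a 95% counting interval from 7.24 to 55.0, and 11.1-fold lower in FR2, from 5.43 to 26.4. These intervals cover counting error only. PVR and NECTIN2 together summed to 4.38 ± 0.603 TPM in CTRL and 3.81 ± 0.660 in hnCD16, and to 0.240 ± 0.128 and 0.360 ± 0.0520 in FR1 and FR2.

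ULBP1, a lipid-anchored NKG2D ligand, had 60, 72 and 92 counts in CTRL and 64, 78 and 88 in hnCD16. It had 13, 19 and 12 counts in FR1 and 23, 15 and 21 in FR2, so no FR1 or FR2 library reached the lowest CTRL library. ULBP1 fell by 2.14 ± 0.24 on the log2 scale in FR1 and by 1.75 ± 0.23 in FR2 compared with CTRL (edgeR adjusted p = 2.46e-07 and 1.5e-06). Compared with hnCD16 it fell by 2.28 ± 0.24 and 1.88 ± 0.23 (adjusted p = 9.78e-08 and 5.15e-07).

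ULBP2, the gene next to ULBP1, had 65, 53 and 67 counts in CTRL and 60, 67 and 60 in hnCD16, against 123, 104 and 121 in FR1 and 114, 128 and 119 in FR2. The groups did not overlap across the pairs. The rise was close to the fold threshold, at 1.11 ± 0.13 for FR1 and 1.13 ± 0.13 for FR2 against CTRL (edgeR adjusted p = 3.84e-07 and 2.59e-07). Against hnCD16 it was 1.02 ± 0.13 for FR2 (adjusted p = 9.58e-07), which was called, and 0.99 ± 0.13 for FR1 (adjusted p = 1.49e-06), which was not. In limma on log2(TPM + 1) the rise was 0.76 for FR1 and 0.81 for FR2 against CTRL, and 0.82 for FR2 against hnCD16. On log2(TPM + 0.1) these values were 0.87, 0.92 and 0.94, and the calls were lost on both scales. Leaving out 1 library also moved ULBP2 across the fold threshold. FR1 against CTRL was 0.98 without CTRL replicate 2, and FR2 against hnCD16 was 0.999 without hnCD16 replicate 1, 0.98 without hnCD16 replicate 3 and 0.97 without FR2 replicate 2. FR1 against hnCD16 rose to 1.05 without hnCD16 replicate 2 and to 1.06 without FR1 replicate 2, and was then called. ULBP2 shares sequence with RAET1L and RAET1G, as 29.7% and 11.7% of its 50-base windows occur in them. Its counts are therefore uncertain, and these shares do not bound by how much. RAET1L is not in the table. With the reads of ULBP2 and RAET1G added up, the log2 fold changes were 0.97 ± 0.12 for FR1 and 1.05 ± 0.12 for FR2 against CTRL, and 0.85 ± 0.12 and 0.93 ± 0.12 against hnCD16.

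ULBP3 had few counts, with 35, 34 and 23 in CTRL and 19, 22 and 23 in hnCD16, and with 20, 14 and 19 in FR1 and 15, 18 and 9 in FR2. It was not called in any comparison. The values against CTRL were -0.60 ± 0.26 for FR1 (edgeR adjusted p = 0.0473) and -0.96 ± 0.28 for FR2 (adjusted p = 0.00434), and against hnCD16 they were -0.17 ± 0.28 (adjusted p = 0.583) and -0.53 ± 0.30 (adjusted p = 0.107). FR1 overlapped with both CTRL and hnCD16. In FR2 against CTRL it passed the fold threshold, and was called, at -1.11 without CTRL replicate 3 and at -1.18 without FR2 replicate 2.

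MICB had 476, 473 and 465 counts in CTRL and 424, 383 and 403 in hnCD16. It had 534, 541 and 582 counts in FR1 and 577, 566 and 572 in FR2. All FR1 and FR2 libraries were above all others, and the spread within groups was small. The log2 fold changes were 0.42 ± 0.06 and 0.45 ± 0.06 for FR1 and FR2 against CTRL, and 0.55 ± 0.06 and 0.57 ± 0.06 against hnCD16 (edgeR adjusted p = 3.1e-06, 1.51e-06, 1.4e-07 and 7.3e-08). These passed the adjusted p, as 79.9%, 80.2%, 79.1% and 80.1% of all genes did, but stayed under the fold threshold, so MICB was not called.

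MICA was lower in FR1 and FR2, with 222, 237 and 232 counts in CTRL and 211, 203 and 192 in hnCD16, against 97, 65 and 83 in FR1 and 79, 98 and 110 in FR2. It fell by 1.299 ± 0.13 in FR1 and by 1.10 ± 0.13 in FR2 compared with CTRL, and by 1.21 ± 0.13 and 1.01 ± 0.13 compared with hnCD16 (edgeR adjusted p = 5.39e-08, 3.46e-07, 1.73e-07 and 1.23e-06). The calls in FR2 rested close to the fold threshold. Against hnCD16 the value was -0.96 when just these 2 groups were fitted, -0.998 by RLE normalization, -0.9989 in DESeq2 and -0.98 in limma on log2(TPM + 1), and the call was lost in each. The calls in FR2 were also lost without single libraries. Against CTRL it was -0.96 without FR2 replicate 1, and against hnCD16 it was -0.97 without hnCD16 replicate 1, -0.9999 without hnCD16 replicate 2 and -0.84 without FR2 replicate 1.

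Because MICA and MICB are similar genes, their reads were also added up. Of the 50-base windows of the MICA transcripts in GENCODE, 1.56% occur in MICB, and 1.74% the other way round. These shares do not bound how uncertain the counts are. As given below, reads of both genes went to different transcript entries in the pairs of groups. The summed counts were 697 to 710 in CTRL and 586 to 635 in hnCD16, and 606 to 665 and 656 to 682 in FR1 and FR2. The log2 fold change of the sum was 0.05 ± 0.06 for FR1 and 0.10 ± 0.06 for FR2 against CTRL (edgeR adjusted p = 0.428 and 0.115), and 0.16 ± 0.06 and 0.21 ± 0.06 against hnCD16 (adjusted p = 0.0135 and 0.00219), none of which reached the fold threshold. MICA made up 32.8 ± 0.882% of the summed counts in CTRL and 33.4 ± 1.19% in hnCD16, but 12.9 ± 2.34% in FR1 and 14.3 ± 2.08% in FR2.

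The total over the 5 NKG2D ligand genes moved less than its parts. It was 45.8 ± 1.87 TPM in CTRL and 39.2 ± 0.535 in hnCD16, and 39.2 ± 2.3 and 41.1 ± 1.21 in FR1 and FR2. FR1 and FR2 libraries, from 36.6 to 42.3 TPM, surrounded the hnCD16 libraries, from 38.7 to 39.8, and on this scale lay below the CTRL libraries, from 43.97 to 47.7. The order of the groups changed with the scaling. Summed as CPM with TMM, CTRL had a total of 43.7 ± 0.185 and hnCD16 of 41.2 ± 0.946, while FR1 had 45.05 ± 1.91 and FR2 46.5 ± 1.17. On that scale the FR2 libraries, from 45.2 to 47.5, lay above the CTRL libraries, from 43.5 to 43.8, which lay within the range of FR1, from 42.9 to 46.7. TPM is relative to gene length and carries no TMM scaling, whose factors lay from 1.05 to 1.11 for CTRL and from 0.985 to 1.02 for hnCD16. For FR1 they lay from 0.939 to 0.950, and FR2 had 0.982 to 0.988. Of the TPM total of the 5 genes, MICB supplied 43.8% in CTRL and 42.1% in hnCD16, but 59.5% in FR1 and 58.0% in FR2. The part of PVR and NECTIN2 in the TPM total of all 7 genes was 8.71 ± 0.768% in CTRL and 8.83 ± 1.31% in hnCD16, against 0.621 ± 0.366% in FR1 and 0.869 ± 0.125% in FR2.

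**Figure D3:**
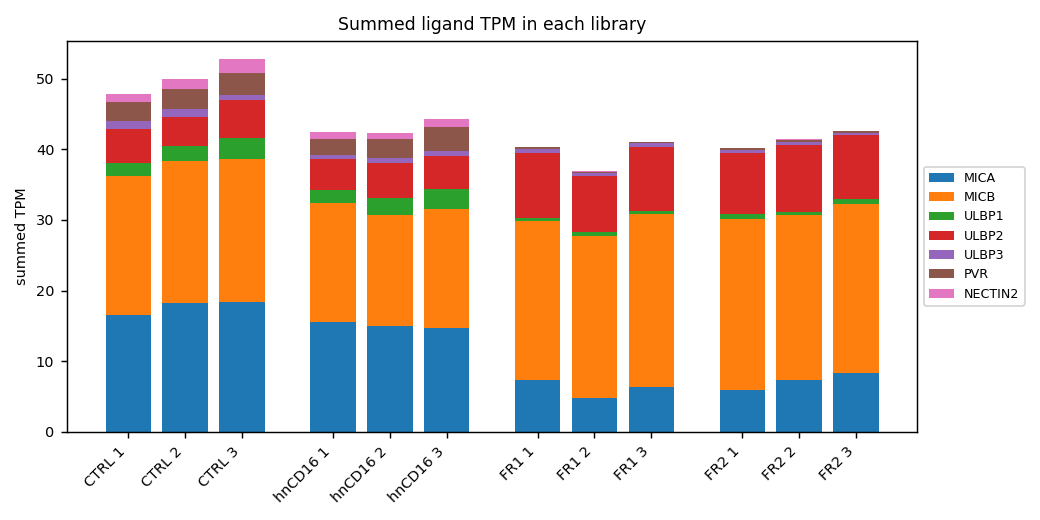
Summed TPM of the 7 ligand genes (y axis, starting at 0) in each of the 12 libraries (x axis), with a colour for each gene. The totals range from 37.0 to 52.8 TPM. MICA takes less and MICB and ULBP2 take more of the bar in FR1 and FR2, where PVR and NECTIN2 are barely visible.

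The transcript table lists 49 entries for the 7 genes, of which 29 were tested with the same rule. The calls were 5 higher and 3 lower in FR1 against CTRL (14.7% of 56640 transcripts called), 5 and 1 in FR2 against CTRL (14.8%), 4 and 3 in FR1 against hnCD16 (14.8%) and 4 and 1 in FR2 against hnCD16 (15.3%). None was called by edgeR in hnCD16 against CTRL (0.162%) or in FR1 against FR2 (0.254%), where DESeq2 called 1 each. RSEM divides reads among similar transcripts, so these values are estimates. MICA has 14 entries for 5 RefSeq transcripts and MICB 24 entries for 3, and the entries of a transcript differ by a number suffix of the kind that NCBI gives to further placements of it in the assembly.

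The MICA reads were given to different transcripts in the pairs of groups. NM_000247 held 0% of MICA in every CTRL library and up to 1.29% in hnCD16, but 84.8 ± 5.47% in FR1 and 78.6 ± 9.07% in FR2. NM_001289152 held 49.9 ± 11.4% in CTRL and 52.0 ± 9.77% in hnCD16 and 0% in every FR1 and FR2 library. NM_001177519 likewise held 12.9 ± 6.06% in CTRL and 17.1 ± 8.53% in hnCD16, and 0% in FR1 and FR2. NM_001289153 held 37.3 ± 5.32% in CTRL and 26.0 ± 3.29% in hnCD16, against 2.70 ± 4.17% in FR1 and 6 ± 8.33% in FR2. NM_001289154 held 0% in CTRL and 4.57 ± 6.18% in hnCD16, against 12.5 ± 2.60% in FR1 and 15.4 ± 1.75% in FR2. NM_000247 was called higher in all 4 comparisons across the pairs (edgeR adjusted p = 0.00445, 0.00423, 0.0163 and 0.0147). The third placement of NM_001289154 was called higher in the same 4. No MICA entry was called lower in them, although the gene was, and the tested entries of NM_001289152 and NM_001289153 were not called.

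For MICB the shares of the RefSeq transcripts were closer, and the placements differed. NM_001289160 held 82.0 ± 12.6% of MICB in CTRL and 86.1 ± 8.28% in hnCD16, against 64.3 ± 8.60% and 62.9 ± 4.09% in FR1 and FR2. NM_005931 held 9.63 ± 8.44%, 6.06 ± 2.23%, 25.1 ± 4.96% and 28.8 ± 4.20% in the same order. The third placement of NM_001289160 had 89.0, 190.3 and 144 expected counts in CTRL and 127, 97.7 and 98.0 in hnCD16, but 17.8, 0 and 0 in FR1 and 0 in each FR2 library. The fourth placement had 142, 161 and 192 in FR1 and 208, 206 and 211 in FR2, with 0 in each CTRL library and 0, 0 and 45.7 in hnCD16. For ULBP2, NM_025217 held 92.2% in CTRL and 74.5% in hnCD16, and 96.2% and 89.6% in FR1 and FR2, and it was called higher in all 4 comparisons. The estimates for PVR and ULBP1 varied between replicates by up to their whole range, for example from 0 to 87.1 expected counts for NM_001135768 of PVR in CTRL.

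**Figure D4:**
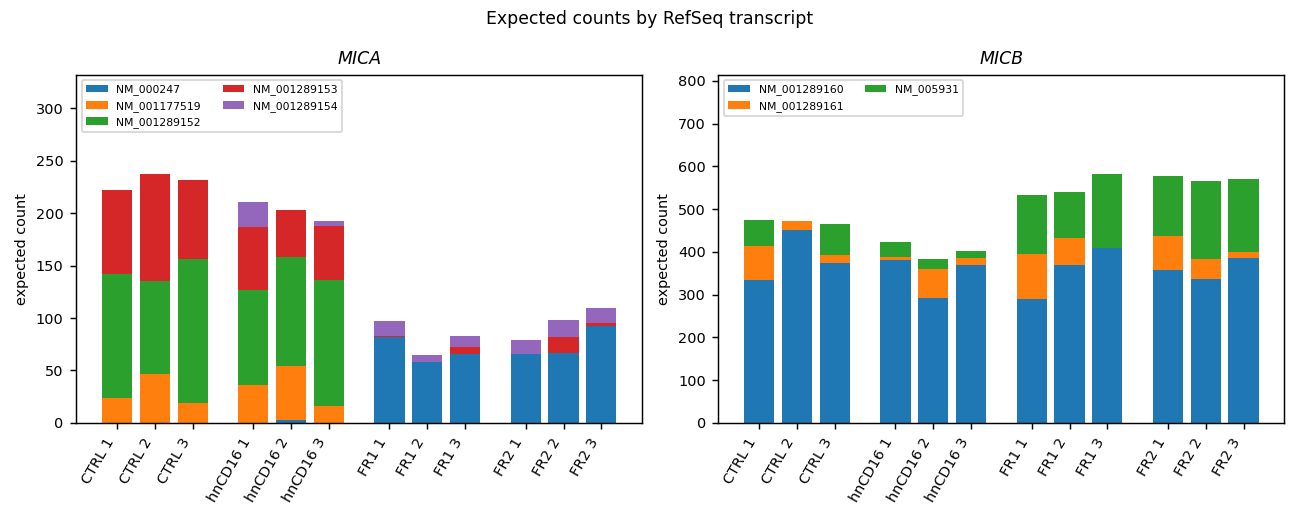
Expected counts (y axis, starting at 0) by RefSeq transcript of MICA (left) and MICB (right) in each library, with placements of a transcript added up. In MICA, the FR1 and FR2 bars consist mostly of NM_000247, which is at 0 in CTRL, and the CTRL and hnCD16 bars of NM_001289152 and NM_001289153.

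The other genes of these pathways were a list of 33, of which 32 were in the table and 31 were tested. Of these 31 genes, 10 were called in FR1 against CTRL (3 higher, 7 lower), 11 in FR2 against CTRL (4 and 7), 11 in FR1 against hnCD16 (4 and 7) and 12 in FR2 against hnCD16 (4 and 8). The background shares are those given above, from 38.0% to 39.5%. In hnCD16 against CTRL 1 gene was called, and in FR1 against FR2 none was called by edgeR, where 7 had an unadjusted p under 0.05, nor by DESeq2 or limma. The median log2 fold change of the list lay between -0.21 and 0.06 in the 6 comparisons.

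NKG2D itself, encoded by KLRK1, had 3, 1 and 0 counts in CTRL and 2, 1 and 1 in hnCD16, against 404, 428 and 414 in FR1 and 439, 415 and 403 in FR2. The CTRL and hnCD16 libraries were all at or under the floor, FR1 and FR2 overlapped, and KLRK1 was called in all 4 comparisons across the pairs. By summed counts KLRK1 was 333.2-fold higher in FR1 than in hnCD16, with a 95% counting interval from 129.8 to 1225, and 330.2-fold higher in FR2. HCST, which encodes the adaptor DAP10, had 177 to 203 counts in CTRL and hnCD16 and 285 to 335 in FR1 and FR2, a difference of 0.72 to 0.94 on the log2 scale that was not called. FR1 and FR2 carry the DAP10 cytoplasmic domain, and reads of the construct cannot be told apart from those of HCST here.

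The receptors of PVR and NECTIN2 were called lower in FR1 and FR2, 4 of 4 in each comparison except FR2 against CTRL with 3 of 4. Of all tested genes, 19.6% to 19.8% were called lower in these comparisons. CD226, which encodes DNAM-1, had 586, 724 and 774 counts in CTRL and 687, 692 and 762 in hnCD16, against 55, 57 and 53 in FR1 and 56, 70 and 62 in FR2. Its log2 fold changes lay between -3.60 and -3.30. CD96 went from 69 to 111 counts in CTRL and hnCD16 to 4 to 14 in FR1 and FR2 (-3.43 to -2.80), and PVRIG, an inhibitory receptor of NECTIN2, from 634 to 823 to 213 to 307 (-1.57 to -1.23). So CD226 and its 2 ligand genes were lower in the same libraries, while KLRK1 was higher and its ligand genes went both ways.

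TIGIT, the shared inhibitory receptor, had 2, 1 and 11 counts in CTRL and 16, 21 and 9 in hnCD16, with 0 in each FR1 library and 0, 5 and 0 in FR2. It was at least 4.79-fold lower in FR1 than in hnCD16 and at least 1.35-fold lower than in CTRL, against the floor of 3 counts per library. It was the 1 gene of the list called higher in hnCD16 than in CTRL (1.79 ± 0.66, edgeR adjusted p = 0.0413), although the libraries overlapped. That call was lost without CTRL replicate 1 (1.44) or 2 (1.28) and without hnCD16 replicate 1 (1.75) or 2 (1.49). The call of FR1 against CTRL was lost without CTRL replicate 3 or any 1 FR1 replicate, and FR2 against CTRL, not called with all libraries (-1.26 ± 1.08, adjusted p = 0.296), was called at -5.15 without FR2 replicate 2, which leaves FR2 with 0 counts.

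Among nectins and their partners, NECTIN3, a binding partner of both PVR and NECTIN2, had 2207 to 2782 counts in CTRL and hnCD16 and 173 to 305 in FR1 and FR2. Its log2 fold changes were -3.65 and -3.01 against CTRL and -3.52 and -2.88 against hnCD16. CADM1, the ligand of CRTAM, had at most 1 count in each CTRL and hnCD16 library and 1971 to 2248 in FR1 and FR2, and was called in the same 4 comparisons. CRTAM, NECTIN1 and NECTIN4 were not called, and AFDN, the nectin anchor afadin, was too low to be tested, with 5 to 8 counts in each CTRL and hnCD16 library and at most 1 in FR1 and FR2. RAET1E and RAET1G, the remaining NKG2D ligand genes in the table, were not called. RAET1E had 44 to 73 counts in CTRL and hnCD16 and 27 to 48 in FR1 and FR2, and RAET1G 14 to 20 and 13 to 31.

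Of 6 genes linked to ligand shedding, the proteases ADAM9, ADAM10 and ADAM17 and the disulphide isomerase PDIA6 were not called. PDIA6 was higher by 0.60 to 0.83 on the log2 scale in FR1 and FR2 and passed the adjusted p. MMP9 was called lower in all 4 comparisons, from 8 to 14 counts in CTRL and hnCD16 to 0 in each FR1 library and at most 2 in FR2. MMP14 was called higher in 3 of the 4, from 4 to 10 counts to 12 to 24. Of 12 stress and damage regulators, ATR, a kinase of the DNA damage response, was called higher in all 4 comparisons (1.75 and 1.34 against CTRL, 1.498 and 1.09 against hnCD16), and XBP1, a factor of the unfolded protein response, was called lower (-1.34, -1.02, -1.57 and -1.24). ATR in FR2 against hnCD16 was at 0.99 without hnCD16 replicate 2, and XBP1 in FR2 against CTRL at -0.95 without CTRL replicate 1 and at -0.96 without FR2 replicate 3, each then under the threshold. ATF4, a factor of the amino acid and stress response, was called lower in FR2 against both CTRL and hnCD16. It was also lower in FR1, where it was not called. Its means were 360.1 CPM in CTRL and 352.2 in hnCD16, against 185.5 in FR1 and 162.3 in FR2. HSF1, the heat shock factor, was higher by 0.51 to 0.84 and not called, and E2F1, ATM, CHEK1, CHEK2, SP1, NFKB1 and RELA were not called.

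**Figure D5:**
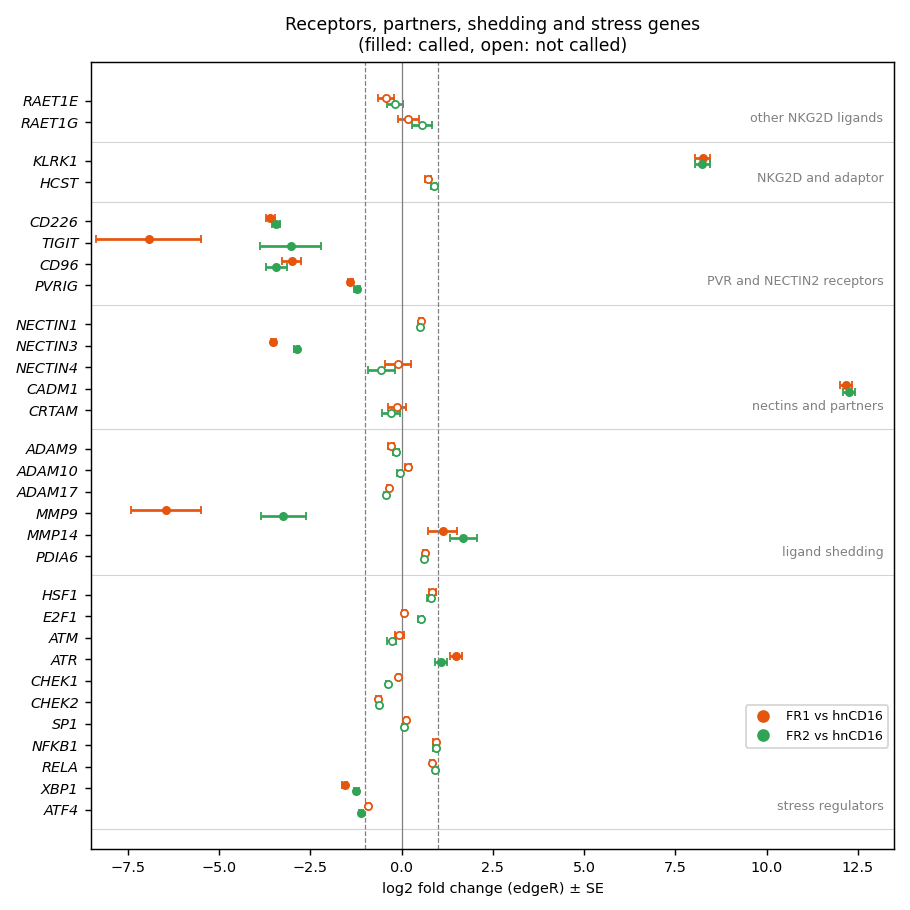
Log2 fold changes (x axis, edgeR, whiskers are SE) of tested genes of the pathway list in FR1 and FR2 against hnCD16, grouped by role (y axis). Filled dots were called and dashed lines mark the fold threshold. KLRK1 and CADM1 lie above 8, and the 4 receptors of PVR and NECTIN2 lie below -1.2.

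The genes most like each ligand gene over the 12 libraries were ranked by Pearson r of log2(CPM + 1) among 12340 genes with a mean of at least 1 CPM. The libraries fall into a pair of clusters, a split that all points share, and r is given as a description. PVR was closest to GOLGA8N (r = 0.997) and ZNF738 (0.997), and ULBP1 to FAM149A (0.993) and ZNF233 (0.992). ULBP2 was closest to LAMA5 (0.994) and ZNF438 (0.990), MICB to SREBF2 (0.995) and STAT3 (0.995), and MICA to ACADS (0.987) and ARMC9 (0.986). ULBP3, with few counts, had lower values with KLHL18 (0.914) and TBC1D22A (0.911). NECTIN2 was under a mean of 1 CPM and was not ranked.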

How the data were processed

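RNA-seq of 12 YT libraries was analysed. Reads were cleaned by the authors with SOAPnuke, aligned to GRCh38.p13 by HISAT2 2.1.0 and quantified by RSEM 1.3.1. The deposited expected counts are read estimates of RSEM per gene and transcript, not normalized, and the deposited TPM values were made by the authors from the same reads. Strand use is not given in the sources used here. After rounding, expected counts were tested with edgeR 4.0.16 (quasi-likelihood, TMM, filterByExpr) in R 4.3.3, in 1 fit of all 4 groups without covariates. Adjusted p-values are Benjamini-Hochberg over all genes tested. The thresholds are those of the study's methods, which name DESeq2.

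The members, lists and tests were chosen with earlier results of these data known. The text names the 7 ligand genes, the other NKG2D ligand genes, NKG2D, its adaptor and the receptors of PVR and NECTIN2 in each comparison. It names other listed genes where called in hnCD16 against CTRL, in FR1 against FR2 or in all 4 comparisons across the pairs, the 2 genes most like each ligand gene, and neighbouring genes called in all 4. Other listed genes that the text mentions, such as MMP14, PDIA6 and HSF1, were chosen after their values were seen.

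Pairs of replicates differed by more than sampling noise (chi-square per gene 2.11 to 13.0). The floor was 3 counts per library (0.160 to 0.169 CPM by total counts). The edgeR step was checked with simulated data. Alternatives were limma 3.58.1 on log2 of TPM plus 1 or 0.1, DESeq2 1.42.0, other normalizations and filters, fits of 2 groups, the replicate block and leaving out each library. Adding up reads of similar genes and summing the ligands as CPM were chosen after seeing the data. The values of some listed genes are not reported here. Other per-sample columns (60), such as FPKM, were not used. Sequences and starts are from RefSeq (GRCh38.p14), in which all 7 promoters were found.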

Additional observations from a re-analysis of the deposited data

How the results depend on the processing

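Of 1741 alternative fold changes of named genes, 1660 kept their direction and their call or lack of one. The call was lost for 47, by fold or by adjusted p, and gained for 9, and 25 changed sign. None of the 25, nor the value reported in its place, was called. In hnCD16 against CTRL, ULBP2 was at -0.017 and -0.020, RAET1G at -0.0032 and -0.0074 and HCST at -0.032 and -0.033 in limma with a pseudocount of 1 and 0.1, and KLRK1 at -0.0011 with 1. With library size only, KLRK1 was at -0.013 and HCST at -0.047 in that comparison and KLRK1 at -0.050 in FR1 against FR2, where it was at -0.0056 in DESeq2 and with RLE normalization. With at least 10 counts in every library, where PVR, NECTIN2 and ULBP3 are no longer tested, 3, 3, 2 and 3 ligand genes were called in FR1 and FR2 against CTRL and then against hnCD16, and 5, 6, 5 and 6 genes of the pathway list. With reads of similar genes added up, 3 ligand genes or sums were called in FR1 against CTRL and 3 in FR2 against hnCD16. There the sum of MICA and MICB and the sum of ULBP2 and RAET1G stayed under the fold threshold. The sum of MICA and MICB was under it in FR2 against CTRL and FR1 against hnCD16 as well, so the call of MICA had no counterpart there either. In limma on log2(TPM + 1), 2 ligand genes were called in FR2 against hnCD16. That scale understates changes of low genes. Without a fold threshold, 14, 24, 24, 24, 23 and 7 of the 31 tested pathway genes passed the adjusted p in hnCD16 against CTRL, FR1 and FR2 against CTRL, FR1 and FR2 against hnCD16, and FR1 against FR2. In the same order, 43.0%, 79.9%, 80.2%, 79.1%, 80.1% and 36.2% of all tested genes passed it. The single pathway gene called in hnCD16 against CTRL, TIGIT, left 0 calls in DESeq2, with library size only, with at least 10 counts in every library, with only the 2 groups compared and in limma with either pseudocount, and the cause was not tested. Scaling by library size only moved the median log2 fold change of all genes to -0.22 in FR1 and -0.17 in FR2 against CTRL and -0.12 in hnCD16 against CTRL. With this scaling ULBP2 in FR1 against CTRL was at 0.91 and ULBP3 in FR2 against CTRL at -1.085, and relative to that median they differ little from the values reported.

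Leaving out 1 library changed the sign of these fold changes, none of them called with all libraries. In hnCD16 against CTRL, ULBP2 ranged from -0.018 to 0.16, PVR from -0.12 to 0.021, RAET1G from -0.0082 to 0.26, KLRK1 from -0.47 to 1.31 and MMP9 from -0.24 to 0.071. In FR1 against FR2, ULBP2 ranged from -0.10 to 0.043, NECTIN2 from -2.15 to 0.17 and KLRK1 from -0.011 to 0.022, and TIGIT in FR2 against CTRL from -5.15 to 0.31, the lowest without FR2 replicate 2, where it was called, and the highest without CTRL replicate 3. Leaving out 1 library gave 3 to 5 called ligand genes in FR2 against hnCD16, where hnCD16 replicate 1 gave the 3. It gave 0 to 1 pathway genes in hnCD16 against CTRL, and 4 to 7 ligand transcripts in FR1 against CTRL, 4 to 6 in FR1 against hnCD16 and 0 to 1 in FR1 against FR2. DESeq2 called 1 ligand transcript in hnCD16 against CTRL, 12 in FR1 against hnCD16, 11 in FR2 against hnCD16 and 1 in FR1 against FR2, and the cause was not tested. The genes most like each ligand gene were sensitive, as 2 of 12 were shared with log2(TPM + 1) and 2 of 12 with Spearman's rho. Same-numbered replicates did not deviate together in all pairs (r from -0.10 to 0.40), and 4 of 6 libraries of hnCD16 and CTRL correlated best with their own number. With the replicate block, 5 ligand transcripts were called in FR1 against CTRL and 4 in FR1 against hnCD16, and the counts of ligand genes stayed at 0, 5, 5, 4, 5 and 0 in the order above. With 3 libraries per group and 0 to 5 counts, the size of the NECTIN2 change is limited by depth.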

Other observations

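Of 20 tested genes beside the ligand genes (the 3 nearest on each side, and those between), 9 were called in all 4 comparisons across the pairs of groups and 11 were not, where 31.7% of all tested genes were called in all 4. The 9 are given here. Next to MICA and MICB, the HLA class I genes HLA-C and HLA-B were higher in FR1 and FR2, at 1270 ± 83.0 and 1554 ± 57.2 CPM for HLA-C against 32.9 ± 4.18 in CTRL and 27.9 ± 1.19 in hnCD16. HLA-B was at 1458 ± 90.2 and 1850 ± 76.5 CPM against 1.84 ± 0.780 and 1.74 ± 0.617. HLA genes are similar to each other and their counts are uncertain. Beside the ULBP genes, LRP11 was higher (4.41 ± 0.347 and 7.13 ± 0.443 CPM against 1.82 ± 0.481 and 1.13 ± 0.247) and PLEKHG1 lower (0.269 ± 0.0643 and 0.490 ± 0.0332 against 19.4 ± 0.554 and 12.98 ± 1.20).

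Around PVR and NECTIN2, ZNF235 had 0 counts in every FR1 and FR2 library against 7.66 ± 1.62 CPM in CTRL and 9.80 ± 1.92 in hnCD16, and APOC2 had 0 against 0.687 ± 0.284 and 0.682 ± 0.123. CEACAM19 was lower (1.09 ± 0.0512 and 0.961 ± 0.310 CPM against 2.76 ± 0.368 and 2.55 ± 0.485). BCL3, a regulator of NF-kB, lies between PVR and NECTIN2 and was higher, at 107.5 ± 7.37 and 116 ± 6.84 CPM against 0.519 ± 0.160 and 0.431 ± 0.0572, while both genes around it were lower. APOE was higher, at 1.497 ± 0.106 and 1.66 ± 0.0495 CPM against 0.251 ± 0.0493 and 0.179 ± 0.110.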
